A study of Homo sapiens with 12 samples.

Results

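A set of 10 genes for immune checkpoints and other immune-regulatory proteins of the cell surface were followed in MV-4-11, an established human acute myeloid leukaemia (AML) line with a mutated FLT3 receptor kinase and a KMT2A fusion. The 10 genes, of 20036 in the expression table, are PDCD1, CD274, CD70, CD86, HAVCR2, LGALS9, VSIR, CD47, SIRPA and CD33. They were picked by name with earlier results from the same 12 libraries known, so their levels and differences are given below as a description, without p-values. The libraries form 4 groups of 3: crenolanib together with HPA-12 (combination), crenolanib alone, HPA-12 alone, and DMSO. Crenolanib inhibits the FLT3 kinase, and (1R,3S)-HPA-12 inhibits CERT, the protein that carries ceramide to the Golgi. All libraries are total RNA from wild-type cells of this line, kept in medium with fetal bovine serum. Treatment lasted 48 h where a time is stated, which it is not for DMSO, and no doses were found in the labels. Whether the numbered libraries of a group are separate cultures is not stated either, so errors and p-values cover the variation among these libraries only, possibly just technical variation.

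Immune checkpoints are pairs of surface proteins through which one cell restrains or stimulates another. Leukaemia cells can carry both sides of such pairs: ligands that meet receptors on T cells (PD-L1, CD70, CD86, galectin-9), a ligand that holds back phagocytes (CD47), and receptors of the myeloid lineage itself (TIM-3, SIRPα, CD33, VISTA). PD-1 is best known as an inhibitory receptor of activated T cells.

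Promoters are shown for 4 of the genes. Of these, PDCD1 and CD86 were higher and LGALS9 and CD33 lower than DMSO in both single-agent groups. CD47, also higher in both, is not among the printed promoters. Each runs from 250 bases before to 50 bases after a transcription start, as given by RefSeq on GRCh38.p14, and reads 5′ to 3′ on the strand of the gene. Such an entry was matched for 7 of the 10 genes (PDCD1, CD274, CD86, LGALS9, VSIR, CD47 and CD33). Capitals mark matches, on either strand, to 6 motifs written with N for any base: AP-1 (TGANTCA), CRE (TGACGTCA), E-box (CACGTG), PU.1 (GAGGAA), ISRE (TTTC, any 2 bases, TTTC) and GAS (TTCNNNGAA). The PDCD1 stretch is chr2:241858845-241859144 on the minus strand, the CD86 stretch chr3:122055112-122055411 on the plus strand, the LGALS9 stretch chr17:27630938-27631237 on the plus strand, and the CD33 stretch chr19:51224830-51225129 on the plus strand.
PDCD1: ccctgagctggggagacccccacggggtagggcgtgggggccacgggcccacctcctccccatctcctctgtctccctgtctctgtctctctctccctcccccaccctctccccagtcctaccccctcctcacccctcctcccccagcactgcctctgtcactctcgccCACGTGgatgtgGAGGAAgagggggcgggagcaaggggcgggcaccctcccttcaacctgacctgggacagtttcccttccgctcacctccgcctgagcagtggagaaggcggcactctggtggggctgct
CD86: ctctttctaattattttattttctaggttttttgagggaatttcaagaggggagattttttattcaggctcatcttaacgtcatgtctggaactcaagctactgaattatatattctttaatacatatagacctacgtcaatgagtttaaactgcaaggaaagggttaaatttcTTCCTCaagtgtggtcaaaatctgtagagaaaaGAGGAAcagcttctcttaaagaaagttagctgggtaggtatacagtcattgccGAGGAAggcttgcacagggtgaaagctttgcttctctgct
LGALS9: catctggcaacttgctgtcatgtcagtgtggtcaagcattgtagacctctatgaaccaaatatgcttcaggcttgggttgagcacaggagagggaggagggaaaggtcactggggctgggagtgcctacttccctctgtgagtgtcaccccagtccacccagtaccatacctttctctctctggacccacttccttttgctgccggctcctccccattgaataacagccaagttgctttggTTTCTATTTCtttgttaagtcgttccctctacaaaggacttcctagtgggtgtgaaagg
CD33: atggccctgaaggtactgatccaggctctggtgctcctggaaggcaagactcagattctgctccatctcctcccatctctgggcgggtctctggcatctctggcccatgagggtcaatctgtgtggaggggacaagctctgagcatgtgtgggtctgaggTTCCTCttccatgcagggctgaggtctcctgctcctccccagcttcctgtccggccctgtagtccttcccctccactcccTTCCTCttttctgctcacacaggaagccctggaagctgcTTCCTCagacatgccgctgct
Positions of motif matches are counted from the transcription start and give the first base of the match as printed. The PDCD1 stretch held an E-box at -81 and a PU.1 match at -69. The CD86 stretch held PU.1 matches at -76, -43 and 11, and the CD33 stretch held them at -90, -10 and 30. The LGALS9 stretch held 1 ISRE match at -9, and the CD274 stretch, not printed here, held overlapping ISRE matches at -208 and -202 and a GAS match at -125. None of the 6 motifs was found in the CD47 and VSIR stretches or at the other CD86 start. Among 35116 promoters of the same length, 27.9% held the PU.1 letters, 7.26% the E-box, 3.57% the ISRE, 7.66% the GAS, 7.71% the AP-1 and 1.85% the CRE letters. PU.1 matches thus occurred both in genes that were higher and in a gene that was lower with the single agents. CD47, also higher with both, held none, and a match is a description of the letters only.

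Expression is given in FPKM, fragments scaled to gene length and library size, as deposited. The libraries differed in depth and composition: estimated depth was 4.4 to 5.07 M reads in the combination group, 10.06 to 10.21 M with crenolanib, 12.06 to 12.79 M with HPA-12 and 13.57 to 15.99 M in DMSO. Transcripts of 13 mitochondrially encoded genes made up 62.2%, 36.0%, 21.6% and 19.8% of all FPKM in the same order of groups. Replicate libraries of the combination correlated at 0.907 to 0.909 on the log scale, against 0.996 to 0.997 for DMSO. Of 20 myeloid marker genes, 17 averaged at least 1 FPKM in DMSO, and the summed level of the 20 was 851.2 to 899.6 FPKM with the combination, 1284 to 1307 with crenolanib, 969.4 to 996.2 with HPA-12 and 1502 to 1515 in DMSO. Among T-cell markers, the CD3 chains CD3D, CD3E and CD3G averaged under 1 FPKM in every group, with a highest mean of 0.899 for CD3E in the combination. The T-cell receptor alpha constant gene TRAC, in contrast, averaged 9.15 FPKM in the combination, 24.2 with crenolanib, 44.0 with HPA-12 and 34.5 in DMSO. IL7R averaged 4.71, 12.4, 5.19 and 20.8 FPKM in the same order, and ZAP70 8.58, 0.893, 0.228 and 0.247 FPKM. The B-cell factor PAX5 was at 0.0447 or less. Summed over 14 T-cell markers in the table, of 16 listed, the level was 29.8 to 36.05 FPKM with the combination (CD2, CD8B and LAT at 0), 42.43 to 46.77 with crenolanib (CD3G at 0), 55.32 to 59.67 with HPA-12 and 57.61 to 61.52 in DMSO. The table held 7 of 8 B-cell, 10 of 10 NK-cell and 12 of 12 stromal and epithelial markers. Summed, they reached at most 5.83, 63.3 and 25.4 FPKM in any library, in that order. NKG7 made up most of the NK-cell sum, with a mean of 60.9 of 62.0 FPKM in DMSO. The 25.4 FPKM came from combination replicate 2, against 5.54 and 6.66 FPKM in the other combination libraries. The summed level of 12 erythroid marker genes, globins included, was 25870 to 26190 FPKM with the combination, 4194 to 4465 with crenolanib, 208.2 to 214.1 with HPA-12 and 74.42 to 82.46 in DMSO. The part that composition plays in the gene differences below was not tested.

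PDCD1 (ENSG00000188389) encodes PD-1. Of the 9 genes of this set that were fitted, it had the largest difference from DMSO in each of the 3 treated groups. PDCD1 had 10.5, 9.97 and 10.4 FPKM in the combination libraries, 54.7, 51.5 and 52.8 FPKM in the crenolanib libraries, 14.1, 14.6 and 15.3 FPKM in the HPA-12 libraries, and 0.119, 0.422 and 0.311 FPKM in the DMSO libraries. No 2 groups overlapped, and crenolanib stood highest. The DMSO values rest on about 4.03, 12.1 and 9.07 reads, estimated from gene length and depth. On the log2(FPKM + 1) scale, on which all log2 differences below are given with the standard error of the fit, PDCD1 was above DMSO by 3.14 ± 0.16 in the combination, 5.40 ± 0.10 with crenolanib and 3.62 ± 0.10 with HPA-12. This scale understates differences of genes with low values, and the ratio of mean FPKM to that in DMSO was 36.2 in the combination and 187 with crenolanib. Adding HPA-12 to crenolanib went with less PDCD1: the combination was below crenolanib by 2.26 log2 units (-2.26 ± 0.10). Within each group PDCD1 took a different place by mean FPKM among the 10 genes, rank 1 with crenolanib, where 97.3% of the genes in the table had a lower mean, and rank 9 in DMSO, where 41.5% did. In bulk RNA, fewer cells with a transcript and less of it per cell cannot be told apart, which holds for every gene here.

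CD274 (ENSG00000120217), the gene for the PD-1 ligand PD-L1, stayed close to 0 throughout. CD274 was listed at 0 in all 3 combination libraries and had 0.0726, 0.596 and 0.702 FPKM with crenolanib, 0.137, 0.141 and 0.0762 FPKM with HPA-12, and 0.107, 0.0717 and 0.194 FPKM in DMSO. Crenolanib overlapped DMSO and HPA-12, because 1 crenolanib library was as low as they were. These levels correspond to between 3 and 29.01 estimated reads per library where the gene was seen at all. CD274 did not reach the 1 FPKM in 3 libraries required for the fit and has no fitted difference.

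**Figure D1:**
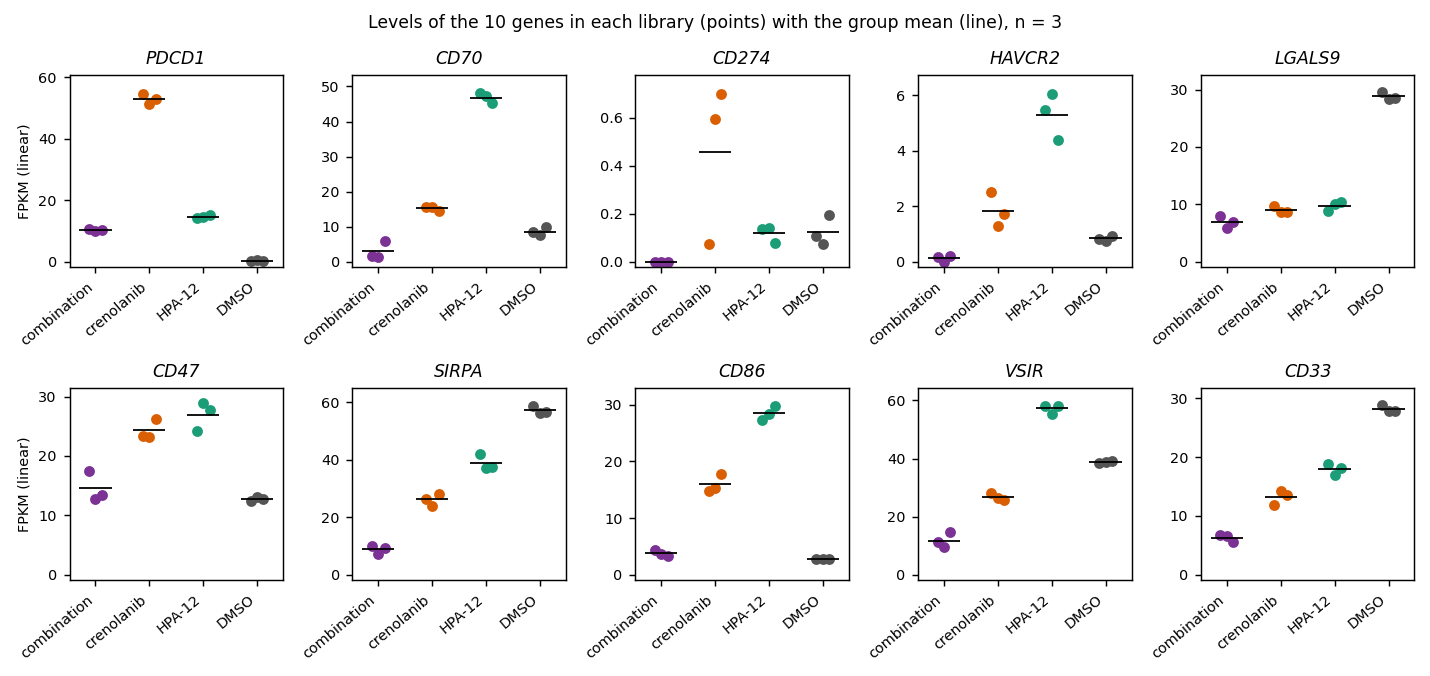
FPKM (linear axis, own range per panel) of the 10 genes in each library (points) with the group mean (line), n = 3 per group. PDCD1 peaks with crenolanib, CD70, HAVCR2, CD86 and VSIR with HPA-12, and LGALS9, SIRPA and CD33 stand highest in DMSO and lowest in the combination.

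The plot of levels by library groups the genes into patterns. CD70 (ENSG00000125726), a ligand of the TNF family that binds CD27 on lymphocytes, was highest with HPA-12 and lowest in the combination. CD70 had 1.63, 1.42 and 5.83 FPKM in the combination libraries, 15.7, 15.5 and 14.4 FPKM with crenolanib, 48.1, 47.2 and 45.2 FPKM with HPA-12, and 8.3, 7.51 and 9.81 FPKM in DMSO. The groups did not overlap, though the third combination library was several times the other two. CD70 was above DMSO by 2.33 ± 0.08 with HPA-12 and by 0.77 ± 0.09 with crenolanib. In the combination it was below HPA-12 (-3.77 ± 0.38), below crenolanib (-2.20 ± 0.38) and below DMSO (-1.43 ± 0.40). The difference from DMSO rests on few reads and on which libraries are kept: it passed the threshold with all 6 libraries and, at -1.91, without combination replicate 3, but not when the filter on low values was dropped (-1.43). It did not pass without combination replicate 1 (-1.22) or 2 (-1.16), or without any 1 of the DMSO libraries (-1.51 to -1.34).

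CD86 (ENSG00000114013), the B7 ligand through which antigen-presenting cells engage CD28 and CTLA-4, was also highest with HPA-12. CD86 had 4.36, 3.67 and 3.35 FPKM in the combination libraries, 14.7, 15.3 and 17.8 FPKM with crenolanib, 27.3, 28.4 and 29.8 FPKM with HPA-12, and 2.73, 2.72 and 2.87 FPKM in DMSO. No groups overlapped. Mean CD86 was 10.3 times DMSO with HPA-12 (log2 difference 2.97 ± 0.06) and 5.75 times with crenolanib (2.16 ± 0.09). With the combination it was 1.37 times DMSO, a log2 difference of 0.34 with a 95% interval of -0.03 to 0.71 that did not pass the threshold. The same difference passed when the filter on low values was dropped and in 1 fit of all 12 libraries. Against each single agent the combination was lower, by -2.63 ± 0.13 from HPA-12 and -1.82 ± 0.16 from crenolanib.

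HAVCR2 (ENSG00000135077) encodes TIM-3, an inhibitory receptor that is also found on leukaemic stem cells, and LGALS9 (ENSG00000168961) its ligand galectin-9. HAVCR2 had 0.171, 0 and 0.205 FPKM in the combination libraries, 2.53, 1.29 and 1.7 FPKM with crenolanib, 5.45, 6.06 and 4.39 FPKM with HPA-12, and 0.825, 0.749 and 0.928 FPKM in DMSO. Every group was separate from every other, in the order HPA-12, crenolanib, DMSO, combination. The combination values rest on 2.86, 0 and 3.58 estimated reads, so no ratio is given for them, and the fitted log2 difference from DMSO was -0.71 ± 0.16. HAVCR2 was above DMSO by 1.77 ± 0.11 with HPA-12 and 0.61 ± 0.16 with crenolanib.

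The ligand was lower than DMSO in all treated groups, whereas HAVCR2 was higher with each single agent and lower in the combination. LGALS9 had 7.96, 5.8 and 6.96 FPKM in the combination libraries, 9.7, 8.65 and 8.72 FPKM with crenolanib, 8.88, 10.1 and 10.4 FPKM with HPA-12, and 29.6, 28.4 and 28.6 FPKM in DMSO. All 9 treated libraries lay below all 3 DMSO libraries, and crenolanib overlapped HPA-12. LGALS9 was below DMSO by -1.93 ± 0.13 in the combination, -1.58 ± 0.06 with crenolanib and -1.47 ± 0.06 with HPA-12. Crenolanib and HPA-12 could not be separated for LGALS9, with a difference of -0.10 and a 95% interval of -0.30 to 0.10. Reads of LGALS9 and its near-identical copies LGALS9B and LGALS9C may have been split by the counting, and those copies had at most 0.422 and 0.691 FPKM in any library.

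VSIR (ENSG00000107738) encodes VISTA, an inhibitory member of the B7 family made mostly by myeloid cells. VSIR had 11.2, 9.45 and 14.6 FPKM in the combination libraries, 28.3, 26.5 and 25.7 FPKM with crenolanib, 58.2, 55.4 and 57.9 FPKM with HPA-12, and 38.5, 38.9 and 39.1 FPKM in DMSO. It was the one gene of the 9 fitted that lay on opposite sides of DMSO with the single agents, with no overlap between groups. VSIR differed from DMSO by -1.66 ± 0.16 in the combination, -0.52 ± 0.05 with crenolanib and 0.55 ± 0.04 with HPA-12.

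CD47 (ENSG00000196776), whose protein tells phagocytes not to engulf the cell, had a small range. CD47 had 17.4, 12.8 and 13.4 FPKM in the combination libraries, 23.4, 23.3 and 26.2 FPKM with crenolanib, 24.2, 28.9 and 27.8 FPKM with HPA-12, and 12.5, 13.1 and 12.8 FPKM in DMSO. Both single agents stood above DMSO and overlapped each other, while the combination overlapped DMSO. The mean was 1.90 times DMSO with crenolanib (0.87 ± 0.06) and 2.11 times with HPA-12 (1.02 ± 0.07). The combination differed from DMSO by 0.16, with a 95% interval of -0.17 to 0.50. Even so, CD47 ranked first among the 10 genes in the combination.

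SIRPA (ENSG00000198053), the myeloid receptor that CD47 engages, was the highest of the 10 in DMSO. SIRPA had 10.1, 7.08 and 9.47 FPKM in the combination libraries, 26.4, 24 and 28.2 FPKM with crenolanib, 41.8, 37.2 and 37.6 FPKM with HPA-12, and 58.7, 56.3 and 56.5 FPKM in DMSO. The groups stepped up without overlap in the order combination, crenolanib, HPA-12, DMSO. Against DMSO, SIRPA differed by -2.57 ± 0.14 in the combination, -1.10 ± 0.06 with crenolanib and -0.55 ± 0.05 with HPA-12. The related gene SIRPB1, which can share reads with SIRPA, averaged 0.438 FPKM in the combination, 1.18 with crenolanib, 0.753 with HPA-12 and 2.48 in DMSO.

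CD33 (ENSG00000105383), a sialic acid binding receptor of myeloid cells and a target of antibody therapy in AML, showed the same order. CD33 had 6.73, 6.57 and 5.57 FPKM in the combination libraries, 11.9, 14.2 and 13.6 FPKM with crenolanib, 18.9, 17.0 and 18.1 FPKM with HPA-12, and 28.8, 27.8 and 27.8 FPKM in DMSO. No groups overlapped. CD33 was at 0.224 times DMSO in the combination (-2.00 ± 0.11), 0.470 times with crenolanib (-1.04 ± 0.07) and 0.641 times with HPA-12 (-0.62 ± 0.05).

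**Figure D2:**
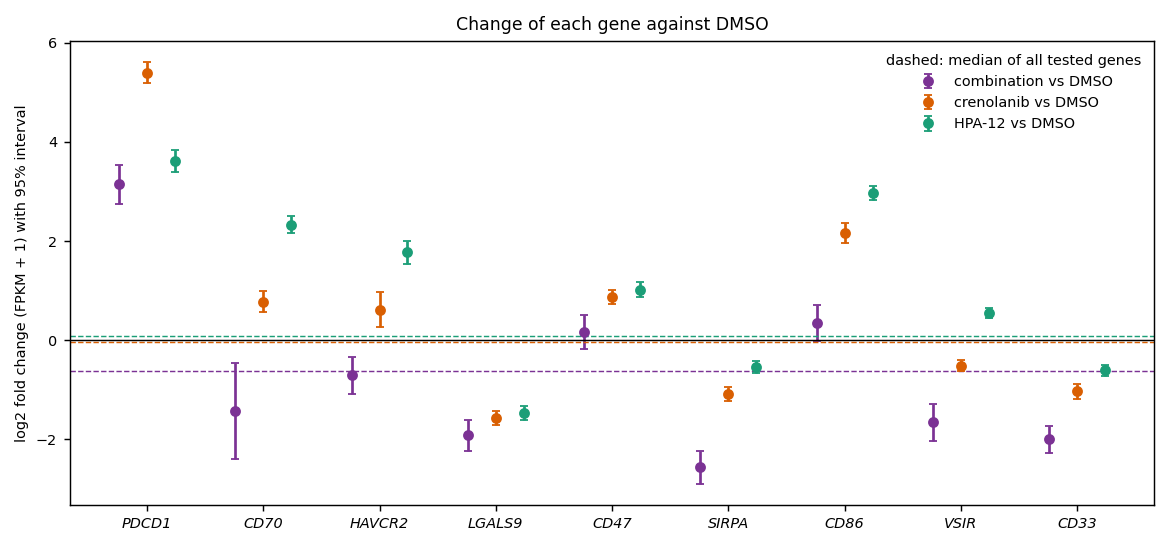
Log2 differences of FPKM + 1 from DMSO with 95% intervals (points and bars) for the 9 fitted genes, for the combination, crenolanib and HPA-12; dashed lines are the median of all tested genes. PDCD1 lies above 3 in all comparisons, and LGALS9, SIRPA and CD33 lie below 0 in all of them.

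Counts over these genes are given beside the background, since most genes passed the test. With HPA-12, of the 9 fitted genes 6 were higher and 3 lower than DMSO, where 77.8% of the 11149 genes tested were called, 43.2% as higher and 34.6% as lower. With crenolanib 5 were higher and 4 lower, where 75.5% of the tested genes were called, 36.1% as higher and 39.4% as lower. With the combination 1 was higher (PDCD1), 6 were lower and 2 did not pass (CD47 and CD86), where 61.9% were called, 12.3% as higher and 49.6% as lower. Libraries of the 2 groups did not overlap for 8 of the 9 genes in the combination, 9 with crenolanib and 9 with HPA-12, against 71.4%, 77.8% and 79.5% of all tested genes. The 3 comparisons share the DMSO libraries. PDCD1 and HAVCR2 reached the filter on low values through treated libraries alone, and nothing is read from these counts. The median difference of the 9 was -1.43 in the combination, 0.61 with crenolanib and 1.02 with HPA-12, against -0.62, -0.04 and 0.09 over all tested genes.

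Because the median gene lay 0.62 log2 units below DMSO (-0.62) in the combination, its differences depend on how libraries are scaled. With the mitochondrial genes left out of the total that median was -0.29, and with median-ratio scaling -0.08, while the share of called genes that were higher was 34.9% and 47.6%, against 19.9% as deposited. The combination then held 3 of the 9 genes as higher and 5 or 4 as lower. CD47 passed as higher under both, at 0.60 without mitochondrial genes and 0.86 with median-ratio scaling, and so did CD86 at 0.71 and 0.92. CD70 did not pass under either (-1.08 and -0.86), and HAVCR2 did not pass with median-ratio scaling (-0.55). PDCD1 stayed above DMSO (3.48 and 3.68), and LGALS9 (-1.50 and -1.25), SIRPA (-2.14 and -1.88), VSIR (-1.22 and -0.97) and CD33 (-1.58 and -1.33) stayed below it. Under the same scalings the calls of the 9 genes with HPA-12 and with crenolanib against DMSO kept their number and direction.

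**Figure D3:**
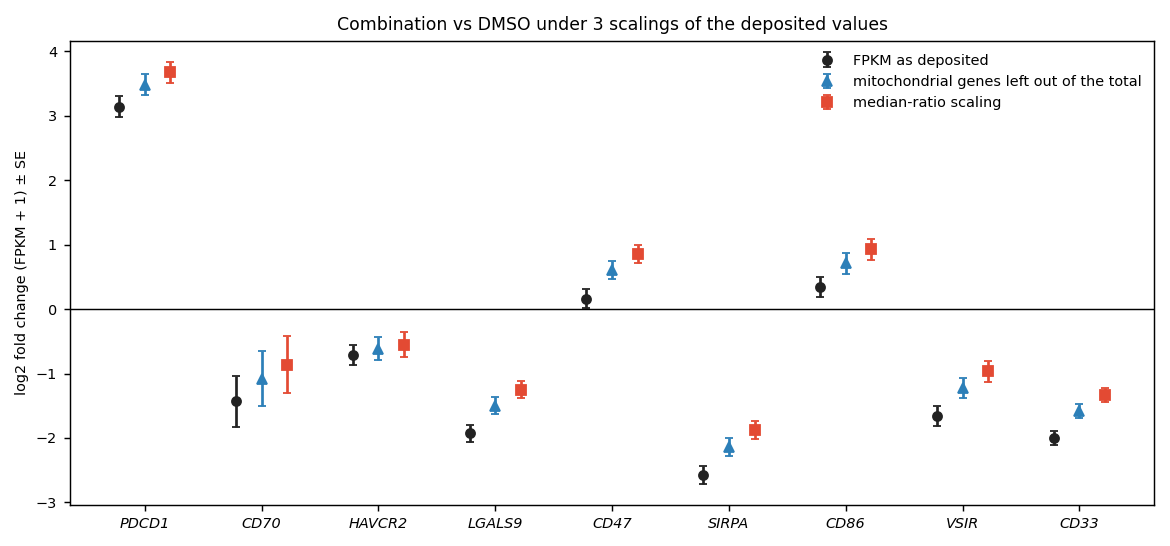
Combination against DMSO: log2 difference of FPKM + 1 (points) with its standard error (bars) for the 9 fitted genes under 3 ways of scaling the libraries. CD47 and CD86 move away from 0 under the rescaled values, while SIRPA, VSIR, LGALS9 and CD33 stay below 0 and PDCD1 above 3.

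The combination was next set against each single agent, which asks how the genes stood when the other compound was added. Against crenolanib 0 of the 9 were higher and 8 lower, where 53.6% of genes were called, 6.74% as higher and 46.9% as lower. PDCD1, CD70 and CD86 differed most, and LGALS9 did not pass, at -0.35 with a 95% interval of -0.73 to 0.03. Against HPA-12 all 9 were lower, where 62% were called, 11.8% as higher and 50.2% as lower. CD70 (-3.77), CD86 (-2.63), HAVCR2 (-2.48), VSIR (-2.21) and SIRPA (-2.02) differed most, and PDCD1 (-0.47 ± 0.11) and LGALS9 (-0.45 ± 0.16) least. The groups did not overlap for 9 of 9 genes in either comparison, against 64.9% of all tested genes for crenolanib and 70.7% for HPA-12. The median of all genes was -0.64 in both. Scaling bears on the small differences: without mitochondrial genes and with median-ratio scaling, CD47 did not pass against crenolanib (-0.36 and -0.04) or HPA-12 (-0.41 and -0.13), and PDCD1 (-0.04 and 0.23) and LGALS9 (-0.04 and 0.23) did not pass against HPA-12. VSIR (-0.48) and CD33 (-0.34) did not pass against crenolanib with median-ratio scaling alone. The share of called genes that were higher was 12.6% as deposited, 26.9% without mitochondrial genes and 53% with median-ratio scaling against crenolanib, and 19%, 34.3% and 48.7% against HPA-12.

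Between the single agents, crenolanib had more PDCD1 than HPA-12 by 1.79 ± 0.06. It had less CD70 (-1.56), HAVCR2 (-1.16), VSIR (-1.06), CD86 (-0.80), SIRPA (-0.55) and CD33 (-0.42). With LGALS9 and CD47 (-0.14, 95% interval -0.32 to 0.03) not passing, 1 of the 9 was higher and 6 lower, where 64.1% of genes were called, 29% as higher and 35.1% as lower. The groups did not overlap for 7 of the 9, against 68.9% of all tested genes.

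The interaction, which takes the HPA-12 difference without crenolanib from the one with it, asks whether HPA-12 went with another difference when crenolanib was present. It was -5.87 for PDCD1, -4.79 for CD86, -4.54 for CD70, -3.09 for HAVCR2, -1.73 for CD47 and -1.69 for VSIR. For these 6 genes HPA-12 alone stood above DMSO while the combination stood below crenolanib. SIRPA (-0.92) and CD33 (-0.35) were lower in both settings, and LGALS9 alone had a positive interaction (1.12). The count was 1 higher and 8 lower of 9, where 65.4% of genes were called, 15.4% as higher and 50% as lower, with a median of -0.65. Higher calls were 23.6% of all interaction calls as deposited, 33.7% without mitochondrial genes and 46.8% with median-ratio scaling. CD33 did not pass without mitochondrial genes (-0.03) or with median-ratio scaling (0.30), SIRPA did not pass with median-ratio scaling (-0.25), and CD33 lost its call in 8 of the fits that left out 1 library.

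**Figure D4:**
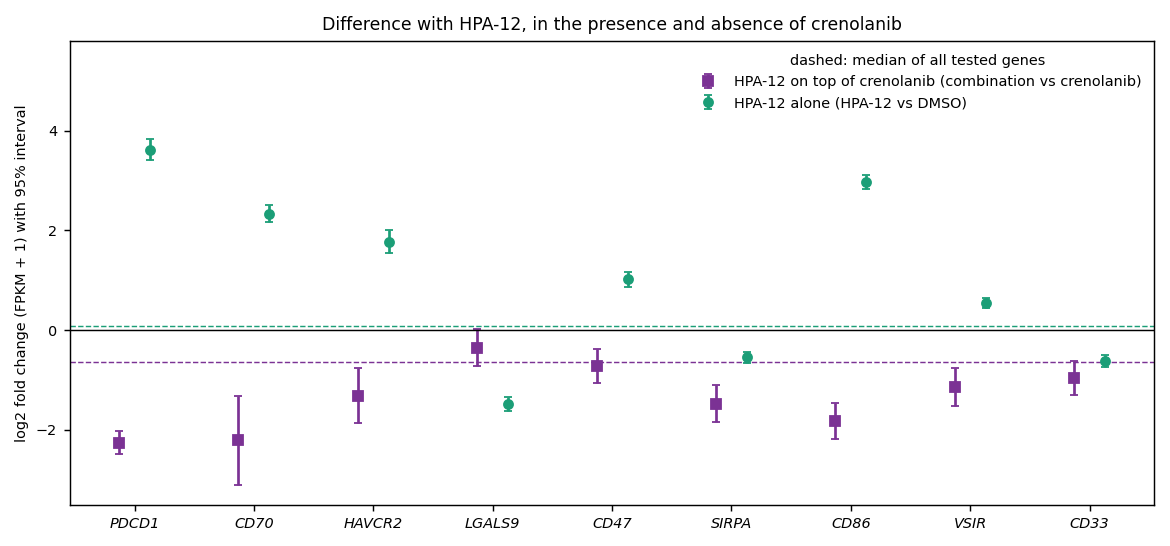
Log2 difference of FPKM + 1 with 95% interval for HPA-12 on top of crenolanib (squares, combination minus crenolanib) and for HPA-12 alone (circles, HPA-12 minus DMSO); dashed lines are the medians of all tested genes. For PDCD1, CD70, HAVCR2, CD47, CD86 and VSIR the squares lie below 0 and the circles above it.

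The genes whose log2 levels followed PDCD1 most closely over the 12 libraries were DUSP16 (Pearson r 0.995), CHD2 (0.993) and KLF6 (0.992). DUSP16, a phosphatase of MAP kinases, averaged 17.3 FPKM in the combination, 81.7 with crenolanib, 24.1 with HPA-12 and 2.35 in DMSO. For CD70 they were ZNF200 (0.992), ZNF623 (0.990) and GPC1 (0.987). These 12 points fall into 4 groups that differ in depth and composition, so r mainly follows the group means. For CD274, with its few reads, the closest was PPP2CA at 0.826.

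Related genes came from 10 lists of 207 genes that exclude the 10 above, of which 138 were tested. These lists too were chosen with earlier results known, and the genes named below by size of change among those that passed. Their adjusted p-values are therefore a description of these libraries and no independent tests. With the combination 13 were higher and 70 lower than DMSO, with crenolanib 53 and 53, and with HPA-12 64 and 44, or 60.1%, 76.8% and 78.3% called, against 61.9%, 75.5% and 77.8% of all tested genes. In the combination the split was 16 higher and 49 lower without mitochondrial genes and 19 and 42 with median-ratio scaling. Among 8 tested B7 and CD28 family genes, CD276 (B7-H3) fell most in every treated group, to 0.949 FPKM in the combination (limma adjusted p = 0.000191), 1.81 with crenolanib (adjusted p = 1.02e-06) and 0.638 with HPA-12 (adjusted p = 8.13e-11), against 8.98 FPKM in DMSO. In the TNF list of 12 tested genes, TNFSF9, the ligand of 4-1BB, rose to 94.3 FPKM in the combination (log2 difference 3.18 ± 0.09, adjusted p = 1.04e-06), 36.7 with crenolanib (adjusted p = 1.56e-08) and 36.9 with HPA-12 (adjusted p = 4.56e-11), against 9.51 FPKM in DMSO. TNFSF9, unlike its family member CD70, was also higher in the combination than with crenolanib (1.34 ± 0.08, adjusted p = 3.55e-05) or HPA-12 (1.33 ± 0.08, adjusted p = 1.57e-05).

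Among 9 tested genes of the TIM, galectin, TIGIT and LAG3 axes, 1 was higher and 5 lower in the combination, 4 and 5 with crenolanib, and 3 and 3 with HPA-12. LGALS3, another galectin, rose to 22.1 FPKM in the combination (2.92 ± 0.30, adjusted p = 0.000253) and 8.46 FPKM with crenolanib (1.72 ± 0.09, adjusted p = 2.38e-07), against 1.87 FPKM in DMSO, while LGALS9 was lower in both. The combination libraries were far apart for LGALS3, with a standard deviation of 10.5 FPKM, and HPA-12 averaged 2.44 FPKM.

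On the CD47 axis, QPCTL, the enzyme that modifies CD47 for binding by SIRPα, averaged 8.21 FPKM in the combination (-1.11 ± 0.24, adjusted p = 0.00677), 19.9 FPKM with crenolanib (0.12 ± 0.07, adjusted p = 0.127) and 49.6 FPKM with HPA-12 (1.40 ± 0.06, adjusted p = 5.51e-10), against 18.1 FPKM in DMSO. It thus rose with HPA-12, did not pass with crenolanib, and fell in the combination with the FPKM as deposited. CALR, whose surface form promotes engulfment, fell to 140 FPKM in the combination (-2.11 ± 0.11, adjusted p = 1.49e-05), 231 with crenolanib (adjusted p = 5.9e-08) and 165 with HPA-12 (adjusted p = 6.51e-11), against 607 FPKM in DMSO. Of 17 tested genes of that list, 2 were higher and 9 lower in the combination, 4 and 8 with crenolanib, and 6 and 7 with HPA-12. Among 8 tested relatives of CD33, the Siglecs, 0 were higher and 6 lower in the combination, 1 and 6 with crenolanib, and 2 and 2 with HPA-12. Over all tested genes 12.3% were called higher and 49.6% lower in the combination, 36.1% and 39.4% with crenolanib, and 43.2% and 34.6% with HPA-12, which is the background for the counts of every list here, and nothing particular to a list is read from them. SIGLEC12 fell most, to 1.96 FPKM in the combination (-4.00 ± 0.39, adjusted p = 0.000206), 9.29 with crenolanib (adjusted p = 1.45e-06) and 6.75 with HPA-12 (adjusted p = 1e-10), against 41.9 FPKM in DMSO. PTPN6, the SHP-1 phosphatase that acts below several of these receptors, fell to 69.1 FPKM with crenolanib (adjusted p = 4.78e-08) and 101 with HPA-12 (adjusted p = 4.5e-08), against 166 FPKM in DMSO.

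Of 27 tested genes that bear on the control of PD-L1 and PD-1, 5 were higher and 15 lower in the combination, 16 and 7 with crenolanib, and 15 and 7 with HPA-12. NR4A1, a nuclear receptor induced by antigen signalling in T cells, rose most in the combination, to 10.7 FPKM (2.62 ± 0.20, adjusted p = 6.65e-05), and with crenolanib, to 8.07 FPKM (2.27 ± 0.10, adjusted p = 1.17e-07), against 0.877 FPKM in DMSO. NR4A1 reached the filter on low values through treated libraries alone, so these p-values lend no support of their own. IFNGR1, a chain of the interferon-gamma receptor, rose most with HPA-12, to 27.4 against 9.36 FPKM in DMSO (1.45 ± 0.09, adjusted p = 3.13e-08). Among 22 tested paired myeloid receptors, 1 was higher and 10 lower in the combination, 9 and 8 with crenolanib, and 13 and 5 with HPA-12. PECAM1, an inhibitory adhesion receptor, rose to 25.5 FPKM with crenolanib (1.01 ± 0.07, adjusted p = 1.34e-06) and 59.1 with HPA-12 (2.19 ± 0.05, adjusted p = 8.77e-12), against 12.2 FPKM in DMSO. It had the lowest interaction of all listed genes (-4.04 ± 0.13, adjusted p = 1.01e-09). Together these values put its mean log2 level in the combination below DMSO, with the FPKM as deposited.

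**Figure D5:**
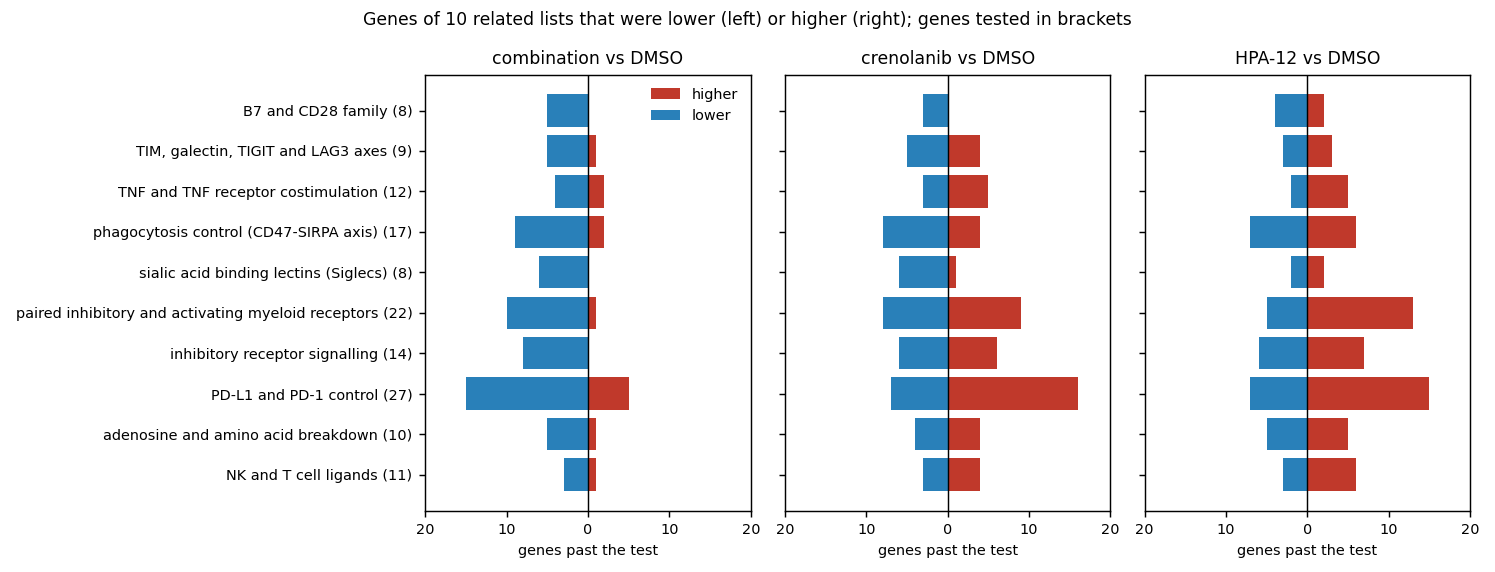
Number of genes of 10 related lists that passed as lower (bars to the left) or higher (bars to the right) in the combination, with crenolanib and with HPA-12, each against DMSO; the number tested stands in brackets. In the combination 70 listed genes were lower and 13 higher, with the FPKM as deposited.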

How the data were processed

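RNA sequencing libraries of MV-4-11 cells were analysed in 4 groups of 3. The deposited table holds FPKM computed by the authors, 1 column per library, per the file headers; how reads were aligned and counted, and on which genome build, is not given in the sources used. Symbols were matched to 20011 of 20036 identifiers. Since the values were FPKM and not counts, limma 3.58.1 (R 4.3.3, statmod 1.5.0; trend, robust) was used on log2(FPKM + 1), with the 6 libraries of the groups compared, or all 12 for the interaction. The 11149 genes that reached 1 FPKM in 3 or more libraries were tested, two-sided, with Benjamini-Hochberg adjustment and a threshold of 0.05. The fit was also run on simulated data with planted differences and independent normal noise. That simulation had no shift in composition or scaling, so it does not bear on the scaling of the combination libraries.

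Depth was estimated as the value at which low FPKM times GENCODE release 29 gene length came out as whole reads within 0.01 read, for values under 20 reads; 31.1% of such values did in the combination and 38.8% in DMSO, so depths and read numbers are estimates with counting error only in view.

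The 10 genes and all lists were chosen with earlier results of these data known. Listed genes are named by size of change, up to 2 each way per list and comparison with DMSO and up to 5 each way over all lists for the others, among genes that passed, averaged at least 1 FPKM and did not overlap between groups; some are not given. Likeness used the 3 highest Pearson correlations. Alternatives were another pseudocount, other filters, 2 rescalings, 1 fit of all libraries, a replicate block, and leaving out each library.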

Additional observations from a re-analysis of the deposited data

Results flagged for a closer look

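With the FPKM as deposited, several genes lay in opposite directions in every library depending on whether the other compound was present. For HPA-12 on top of crenolanib (combination minus crenolanib) and HPA-12 alone (HPA-12 minus DMSO), the log2 differences were -2.26 and 3.62 for PDCD1, -2.20 and 2.33 for CD70, -1.32 and 1.77 for HAVCR2, -0.71 and 1.02 for CD47, -1.82 and 2.97 for CD86, and -1.15 and 0.55 for VSIR. For crenolanib on top of HPA-12 (combination minus HPA-12) and crenolanib alone (crenolanib minus DMSO), they were -0.47 and 5.40 for PDCD1, -3.77 and 0.77 for CD70, -2.48 and 0.61 for HAVCR2, -0.85 and 0.87 for CD47, and -2.63 and 2.16 for CD86. The difference between the settings is the interaction given above, in which all 6 genes passed as lower; because the genes were chosen with these results known, that call is a description and no independent test of the difference was made. With median-ratio scaling the PDCD1 difference between the combination and HPA-12 was 0.23, and CD47 did not pass between the combination and either single agent under both rescalings. VSIR did not pass between the combination and crenolanib with median-ratio scaling (-0.48). HAVCR2 in the combination rests on at most 3.58 estimated reads per library.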

How the results depend on the processing

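Of the values of the 9 fitted genes under the alternatives, 758 moved by less than the spread between replicates, 96 moved by more, and 3 reversed. The 758 do not measure stability, since most could not have come out otherwise. Other filters, the replicate block and the fit of all libraries leave a log2 difference unchanged by construction. Leaving out a library in a comparison between a pair of groups could not move it past that spread. The 3 reversed values arose with median-ratio scaling and did not pass: 0.23 for PDCD1 and 0.23 for LGALS9 in the combination against HPA-12, and 0.30 for CD33 in the interaction. Without mitochondrial genes these values did not pass either (-0.04, -0.04 and -0.03). A mean of at least 5 FPKM left fewer genes to test and called 5100 genes instead of 8672 for HPA-12 against DMSO, 5168 instead of 8415 for crenolanib against DMSO, 4631 instead of 7147 for crenolanib against HPA-12 and 4633 instead of 7293 for the interaction. Listed genes called then were 56 instead of 108, 59 instead of 106, 48 instead of 85 and 56 instead of 92 in the same order, 53 instead of 83 for the combination against DMSO and 56 instead of 85 for the combination against HPA-12. In 1 fit of all 12 libraries, HPA-12 against DMSO gave 5652 genes and 71 listed genes, and crenolanib against HPA-12 gave 4589 and 53; the cause was not tested. Median-ratio scaling gave 2905 genes instead of 5977 and 30 listed genes instead of 69 for the combination against crenolanib.

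Same-numbered libraries did not deviate together (correlations of -0.0294 to 0.068). This shows no strong effect shared by number, but cannot tell whether same-numbered libraries were handled together. A fit with the replicate number as a block called 8665 genes for HPA-12, 8289 for crenolanib and 6579 for the combination against DMSO, 5741 for the combination against crenolanib, 6728 for the combination against HPA-12, 7129 for crenolanib against HPA-12 and 7243 for the interaction. Under the block LGALS9 in the combination against HPA-12 (-0.45) and CD33 in the interaction (-0.35) lost their calls, and no other call among the 9 genes changed.

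Leaving out 1 library gave 8222 to 8751 genes for HPA-12 against DMSO, 7750 to 8396 for crenolanib, and 5464 to 7346 for the combination. Without the filter on low values CD70 in the combination against DMSO did not pass (-1.43) and CD86 did (0.34), and the fit of all 12 libraries also called CD86 there (0.34) and LGALS9 in the combination against crenolanib (-0.35). Among the 10 genes, LGALS9 in the combination against HPA-12 lost its call without combination replicate 2 or 3 or any 1 HPA-12 library (-0.51 to -0.35), and PDCD1 without HPA-12 replicate 3 (-0.44). CD33 lost its interaction call without combination replicate 3, crenolanib replicate 2 or 3, HPA-12 replicate 1 or 3, or any 1 DMSO library (-0.37 to -0.28). CD86 in the combination against DMSO passed without combination replicate 3 (0.41), LGALS9 against crenolanib without combination replicate 1 (-0.45), and CD47 between crenolanib and HPA-12 without HPA-12 replicate 1 (-0.22). Depth limits CD274 in every group, PDCD1 in DMSO, and HAVCR2 and CD70 in the combination.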
